A study of Mus musculus with 8 samples.

Results

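Cell division genes were followed across the leukocyte lineages of arthritic mouse paw joints. The 46 genes were taken as a list of known function, chosen with earlier results of these data known. All 46 were found among the 28434 gene rows of both deposited tables. They fell into 14 genes of DNA replication (S), 21 genes of mitosis (G2/M) and 11 genes of chromatin, tubulin and nuclear transport. Arthritis was raised in 10-week-old C57BL/6 mice with K/BxN serum, which carries joint-inflaming antibodies, injected on day 0 and again on days 2 and 9. Every mouse then received, on day 12, bone marrow monocytes from arthritic C57BL/6 mice. In the Mono group these had been kept with vehicle for 90 min, and in the Mono+MCTR3 group with 1 nM MCTR3 (maresin conjugate in tissue regeneration 3), a lipid mediator. On day 22 live CD45+ paw joint cells were sorted from 4 mice per group for single cell RNA sequencing. Every mouse in both groups was thus arthritic and had received cells, and no mouse without a transfer was part of the comparison. Transferred cells were not told apart from host cells in the counts. Mice are named here by the barcode suffix of their cells (mouse 1 to mouse 4 of a group), which does not name a labelled animal.

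A dividing cell copies its DNA in S phase and parts the copies in mitosis. The replication genes build the nucleotide pool (Rrm1, Rrm2, Tyms, Tk1, Dut) and run the replication fork (Mcm2 to Mcm7, Pcna), and the mitosis genes drive entry into division (Cdk1, the cyclins), shape chromosomes (Top2a, Smc2, Smc4) and attach and part them (Cenpa, Birc5, Aurkb, Ube2c). In blood cell formation such genes run high in precursors and are switched off as a cell matures, and mature neutrophils no longer divide. Several of the chromatin genes, among them Hmgb2 and H2afz, are also made in cells that do not divide.

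Promoters of replication and of mitosis genes are known to carry different short motifs, so those of 6 genes the results turn on are printed here, as the 150 bases before the annotated start (RefSeq, GRCm38.p6, 5′ to 3′ on the strand of the gene). Capitals mark the letters of the motifs searched on both strands: an E2F site (TTTGGCGC, TTTCCCGC, TTTGCCGC or TTTCGCGC), a cell cycle homology region or CHR (TTTGAA or TTCGAA) and a CCAAT box (CCAAT). Mcm6 at chr1:128359706-128359855 (−) and Pclaf at chr9:65890173-65890322 (+) stand for replication, Top2a at chr11:99024190-99024339 (−), Mki67 at chr7:135716380-135716529 (−) and Ube2c at chr2:164769779-164769928 (+) for mitosis, and Cks2 at chr13:51645082-51645231 (+) for a mitosis gene that was high outside dividing cells.
Mcm6: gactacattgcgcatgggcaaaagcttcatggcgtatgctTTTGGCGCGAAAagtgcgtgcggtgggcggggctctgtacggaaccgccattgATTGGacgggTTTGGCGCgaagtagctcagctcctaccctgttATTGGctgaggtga
Pclaf: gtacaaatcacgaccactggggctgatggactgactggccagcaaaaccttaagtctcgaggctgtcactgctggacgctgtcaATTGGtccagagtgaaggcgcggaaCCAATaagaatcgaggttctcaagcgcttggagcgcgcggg
Top2a: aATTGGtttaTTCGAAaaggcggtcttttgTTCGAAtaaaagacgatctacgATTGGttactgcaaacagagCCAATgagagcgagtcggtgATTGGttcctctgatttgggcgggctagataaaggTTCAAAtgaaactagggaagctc
Mki67: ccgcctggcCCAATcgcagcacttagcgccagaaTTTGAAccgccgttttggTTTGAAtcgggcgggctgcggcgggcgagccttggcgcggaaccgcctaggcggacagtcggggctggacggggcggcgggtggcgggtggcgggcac
Ube2c: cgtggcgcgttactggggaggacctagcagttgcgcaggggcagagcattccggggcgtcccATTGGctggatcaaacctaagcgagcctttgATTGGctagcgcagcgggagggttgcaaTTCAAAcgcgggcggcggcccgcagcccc
Cks2: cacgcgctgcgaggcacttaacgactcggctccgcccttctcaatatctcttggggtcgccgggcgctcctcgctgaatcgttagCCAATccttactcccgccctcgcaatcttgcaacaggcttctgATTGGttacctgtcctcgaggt

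In this window the Mcm6 promoter held 3 E2F matches, a pair of which overlap on opposite strands, and 2 CCAAT boxes. The Top2a window held 3 CHR matches and 4 CCAAT boxes, the Mki67 window 2 CHR matches and 1 CCAAT box, and the Ube2c window 1 and 2. The Cks2 window held 2 CCAAT boxes and no CHR match, and the Pclaf window held 2 CCAAT boxes. Over the full RefSeq window of 300 bases (250 before to 50 after the start), 37 of the 46 genes had a promoter among 32851 promoters of 27025 genes. The genes not matched were Mcm4, Gmnn, Ccna2, Tpx2, Smc4, Aurkb, Stmn1, Lmnb1 and H2afx. An E2F match was found for 5 of 12 replication genes (41.7%; Mcm3, Mcm5, Mcm6, Mcm7 and Pclaf, the last outside the printed bases), for 1 of 17 mitosis genes (5.88%; Cdk1) and for 2.60% of all genes. A CHR together with a CCAAT box was found for 12 of 17 mitosis genes (70.6%), 2 of 12 replication genes (16.7%) and 8.61% of all genes. CCAAT boxes alone were common, at 88.2% of the mitosis genes, 75.0% of the replication genes and 41.1% of all genes. The replication and mitosis genes thus carried different letters in front of them. These matches are letters in a window and were not tested as binding sites. The 46 genes lay on 17 chromosomes, with 6 on chromosome 2, and all were annotated as protein coding.

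After removal of cells outside 250 to 3000 genes, under 500 UMIs or over 5% mitochondrial UMIs, 10256 of 10538 barcodes were kept, 5241 in Mono and 5015 in Mono+MCTR3. A UMI (unique molecular identifier) marks 1 captured transcript, so a UMI count is a count of molecules seen. Totals per mouse ran from 1731045 to 6009009 UMIs, and the median cell held 1685.5 to 2428 UMIs. Mice of a group shared 0 to 8 barcodes. Cells were grouped into classes by clustering without the cell division genes, and each class name stands for cells that are like that type by its markers. The classes were mature neutrophils (4955 cells), immature neutrophils (1624), B-cells (1407), T-cells (763), NK (635), monocytes and macrophages (291), dendritic cells (68), pDC (plasmacytoid dendritic cells, 45), neutrophil precursors (41) and mast cells or basophils (28). A cluster of 54 cells could not be named and is called the unnamed 54-cell cluster. A UMI of Ptprc, the gene of the sorted marker CD45, was seen in 57.3% of all cells, in 73.2% of neutrophil precursors and in 42.6% of the unnamed 54-cell cluster. Summed red cell genes were highest in 3 Mono+MCTR3 mice, at 207934 CPM in the unnamed 54-cell cluster of mouse 3, 21287 CPM in neutrophil precursors of mouse 2 and 13685 CPM in mature neutrophils of mouse 4.

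The neutrophil precursors came from clustering the immature neutrophils again, a step chosen after the data were seen. They were led by Fcnb, Elane and Ms4a3, which are genes of early granule-forming neutrophils, together with the division genes Ube2c, Rrm2 and Birc5. Of the cells left as immature neutrophils, 613 formed a sub-cluster that scored higher for the mature list and stayed with the immature class. The unnamed 54-cell cluster was led by the muscle genes Acta1, Myl1 and Tnnc2, but only 4 of its 54 cells carried at least 3 of the 10 leading muscle genes. At least 3 genes of the B-cell list were seen in 24 of the 54 cells and at least 3 of the pre-B list in 22. Its cells thus carried markers of more than 1 class, and no cell type name is given to it.

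The 46 genes made up 0.449% of all UMIs, and their levels differed widely by class. Levels are given as CPM, the UMIs of a gene per 1000000 UMIs of that class in a mouse. A 3′ count reads 1 end of a transcript, so CPM were not divided by gene length. The 14 replication genes together reached 1958 ± 611 CPM (SD, n = 5 mice with at least 5 cells) in neutrophil precursors and 3705 ± 1691 CPM (n = 6) in the unnamed 54-cell cluster. In lymphocytes and monocytes they lay much lower, at 278 ± 74.3 CPM in B-cells, 318 ± 102 in T-cells, 385 ± 166 in NK and 339 ± 125 in monocytes and macrophages (n = 8 each). Neutrophils past the precursor stage were lowest, with 15.8 ± 7.3 CPM in immature and 33.2 ± 9.8 CPM in mature neutrophils. The 21 mitosis genes followed another order below the top. They summed to 4140 ± 790 CPM in neutrophil precursors and 3935 ± 1949 CPM in the unnamed 54-cell cluster, to 3355 CPM in 2 mice with mast cells or basophils, and then to 639 ± 370.0 CPM in dendritic cells (n = 6), 520.1 ± 319 CPM in monocytes and macrophages, 442 ± 71.9 in mature neutrophils, 403 ± 36.3 in T-cells, 317 ± 131 in NK, 244 ± 62.6 in immature neutrophils and 239.8 ± 32.6 in B-cells. Mature neutrophils therefore ranked beside T-cells for mitosis genes while holding almost no replication genes. Of the 442 CPM in mature neutrophils, Cks2 alone gave 381.

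**Figure D1:**
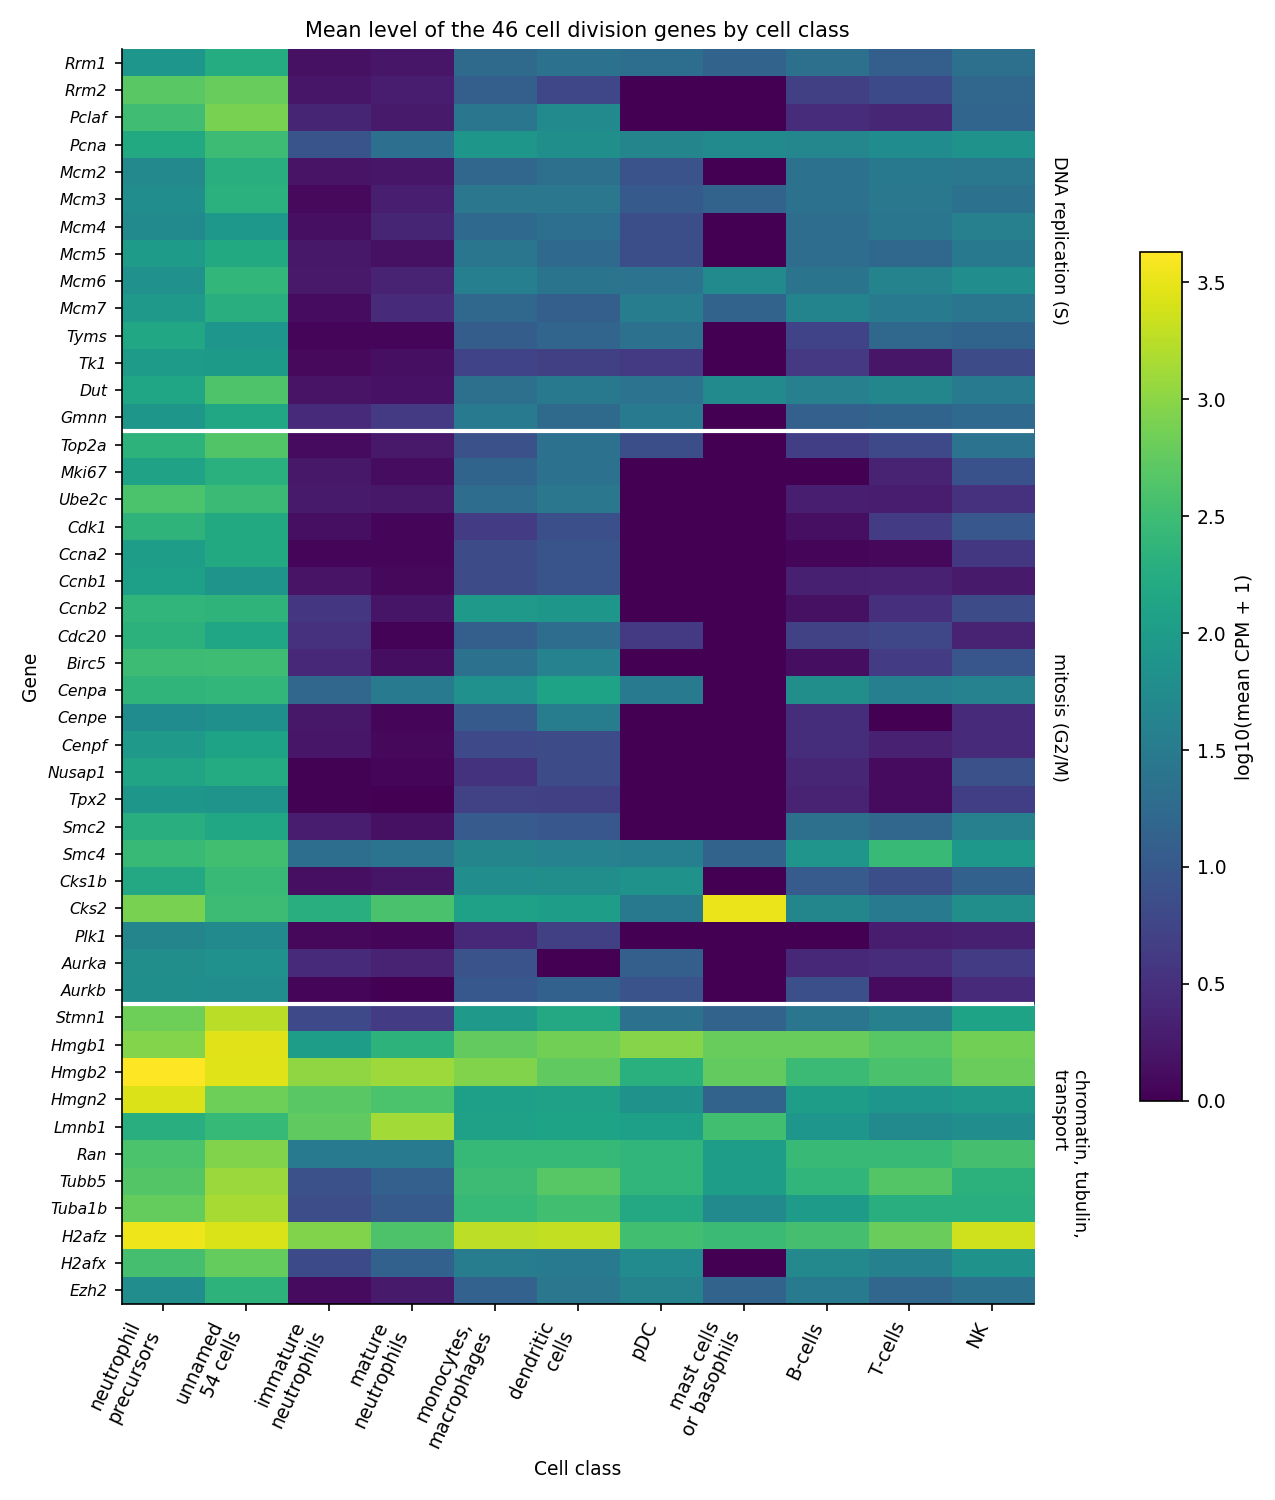
Mean level of each of the 46 genes (vertical axis, ordered by role) in 11 cell classes (horizontal axis), as log10 of the mean CPM plus 1 over mice with at least 5 cells of the class. The columns of neutrophil precursors and of the unnamed 54-cell cluster are raised in nearly every gene, immature and mature neutrophils are near the floor for replication and mitosis genes apart from Cks2, and mast cells or basophils hold the highest Cks2 level, 3342 CPM.

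To count dividing cells, each cell was thinned to 1000 UMIs and called cycling when at least 3 different genes of the 35 replication and mitosis genes were seen in it. Of 9630 cells with enough UMIs, 143 (1.48%) were cycling. They were concentrated in small classes. Neutrophil precursors held 32 cycling cells of 41 (78.0%) and the unnamed 54-cell cluster 29 of 54 (53.7%), which were 22.4% and 20.3% of all cycling cells. Mature neutrophils, which are known not to divide, gave a background for this count, with 3 of 4397 cells (0.0682%, median 1505 UMIs before thinning). Immature neutrophils lay at that level, with 1 of 1620 cells (0.0617%). Most UMIs of the 35 genes in mature neutrophils were Cks2, which leaves few of other genes to reach 3. B-cells, T-cells and NK held more replication gene UMIs, so their own background may be higher and was not measured. T-cells were also high in Smc4, 1 of the 35 genes, which leaves fewer others needed to reach 3. How far Smc4 raised the T-cell share was not tested.

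Between these extremes, the share was 8.82% in dendritic cells (6 of 68), 6.92% in monocytes and macrophages (20 of 289), 2.51% in T-cells (19 of 758), 1.76% in NK (11 of 625) and 1.21% in B-cells (17 of 1402). Mast cells or basophils, the class with the highest Cks2 level, held 3 of 26 (11.5%), and pDC held 1 of 45 (2.22%). Among monocytes and macrophages, 19 of the 20 cycling cells lay in 1 cluster of 165 monocytes (11.5%), and 1 lay among 76 macrophages. That monocyte cluster also had Elane, a precursor gene, among its leading genes. Of the 20 cycling cells of the class, 17 carried at least 3 of the 10 neutrophil precursor genes, against 83 of all 291 cells, and 20 carried at least 3 immature neutrophil genes, against 237 of 291. All 20, like all 291, also carried at least 3 monocyte genes. Of the 6 cycling cells in the dendritic class, 1 carried at least 3 of the 10 dendritic genes, against 36 of all 68, while 6 carried at least 3 monocyte genes (68 of 68) and 6 at least 3 pDC genes (36 of 68). The class names thus do not settle what type these cycling cells were. As means over mice, the shares were 2.61 ± 0.771% in T-cells, 1.31 ± 1.16% in NK and 1.09 ± 0.785% in B-cells (SD, n = 8), so NK and B-cells did not differ beyond their spread. Without thinning, where deeper cells show more genes, the shares were 97.6% in precursors, 88.9% in the unnamed 54-cell cluster, 47.1% in dendritic cells, 27.1% in monocytes and macrophages, 25.6% in T-cells, 16.9% in NK, 9.38% in B-cells, 1.54% in immature and 0.363% in mature neutrophils. When 5 genes were required, 70 cells remained, of which 22 were precursors, 25 were in the unnamed 54-cell cluster and 9 were monocytes and macrophages. Of the rest, 4 were NK, 4 were dendritic cells, 3 were B-cells, 1 was a T-cell, 1 was a pDC and 1 was a mast cell or basophil. The share in T-cells and B-cells thus rested mostly on cells with just 3 or 4 of the genes.

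Replication and mitosis genes were also counted in the same cells, without a test. In the unnamed 54-cell cluster, 20 of 25 cells with at least 2 mitosis genes (80%) also held at least 2 replication genes, against 20.7% of its other cells. In monocytes and macrophages this was 7 of 19 (36.8%) against 3.33% of the others, and in NK 3 of 18 (16.7%) against 4.12%. Replication genes were common in all precursors, with 15 of 33 (45.5%) against 37.5%. They were rare in T-cells, 1 of 24 (4.17%) against 3.13%, and in B-cells, 1 of 22 (4.55%) against 2.39%. In precursors, 21 of the 32 cycling cells held more mitosis than replication UMIs and 11 held fewer. The unnamed 54-cell cluster leaned the other way, with 17 cells richer in replication and 11 richer in mitosis UMIs. T-cells also held more cycling cells rich in replication UMIs (12 against 6), and monocytes and macrophages more rich in mitosis UMIs (12 against 6).

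**Figure D2:**
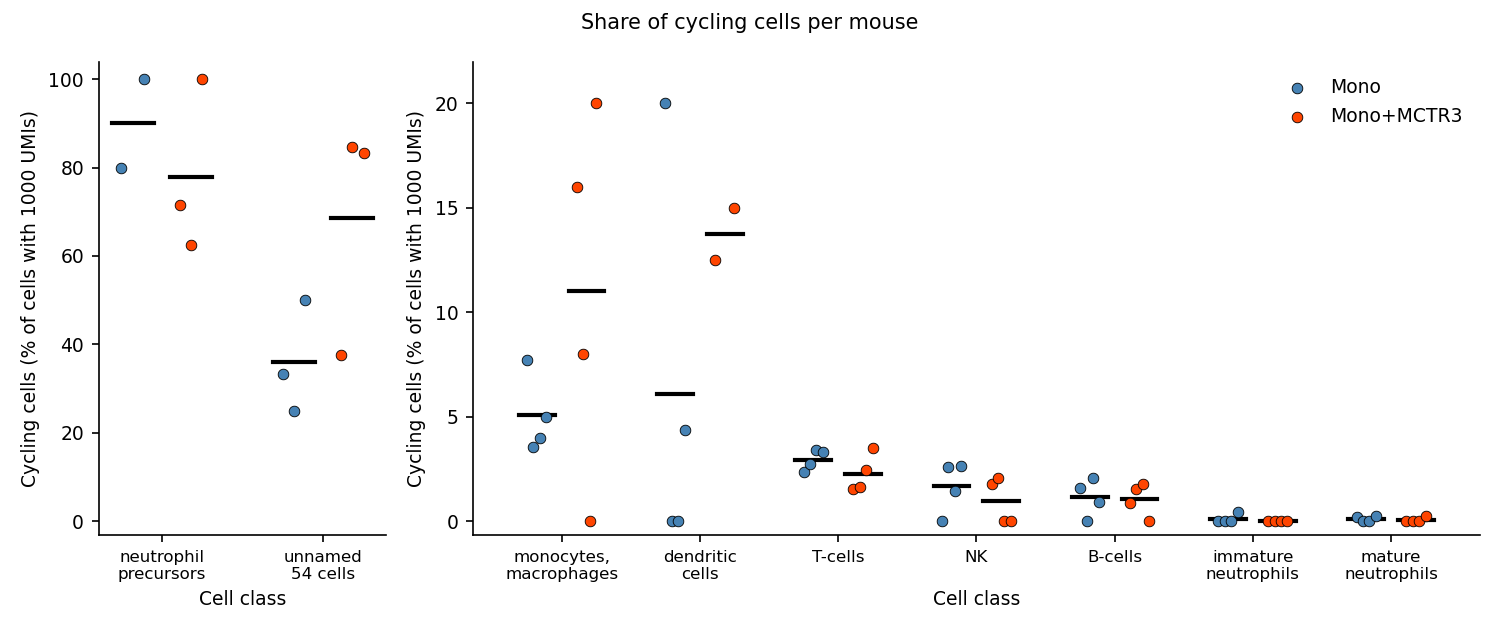
Share of cycling cells per mouse (vertical axis, percent of cells with at least 1000 UMIs) by cell class, with Mono in blue and Mono+MCTR3 in orange, 1 point per mouse with at least 5 such cells and a bar at the group mean. Precursors and the unnamed 54-cell cluster have an axis of their own because they run from 25.0% to 100%, while T-cells, NK and B-cells stay under 4% in every mouse and both neutrophil classes stay near 0.

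The UMIs of each gene were traced to cycling cells and to mature neutrophils. Cycling cells held 4.06% of all UMIs, and mature neutrophils held 30.3%. For 24 of the 46 genes, more than 50% of the UMIs were in the cycling cells. These were 18 of 21 mitosis genes, 5 of 14 replication genes and 1 of 11 chromatin, tubulin and transport genes. The 35 replication and mitosis genes were themselves used to call a cell cycling, so their shares describe the call and are not a test of it. Ccna2, the S and G2 cyclin, had 96.3% of its UMIs there, Pclaf, a partner of the replication clamp, 93.6%, Nusap1, a spindle protein, 91.8%, Tpx2, a spindle assembly factor, 91.1% and Rrm2, the regulated subunit of ribonucleotide reductase, 90.6%. Of the 11 genes not used in the call, Stmn1, which takes microtubules apart, stood highest at 69.3%, followed by Ezh2 (45.5%) and H2afx (45.1%). Lmnb1, which builds the nuclear lamina, was the one gene of the 46 whose share in cycling cells, 1.94%, lay under that of all UMIs.

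**Figure D3:**
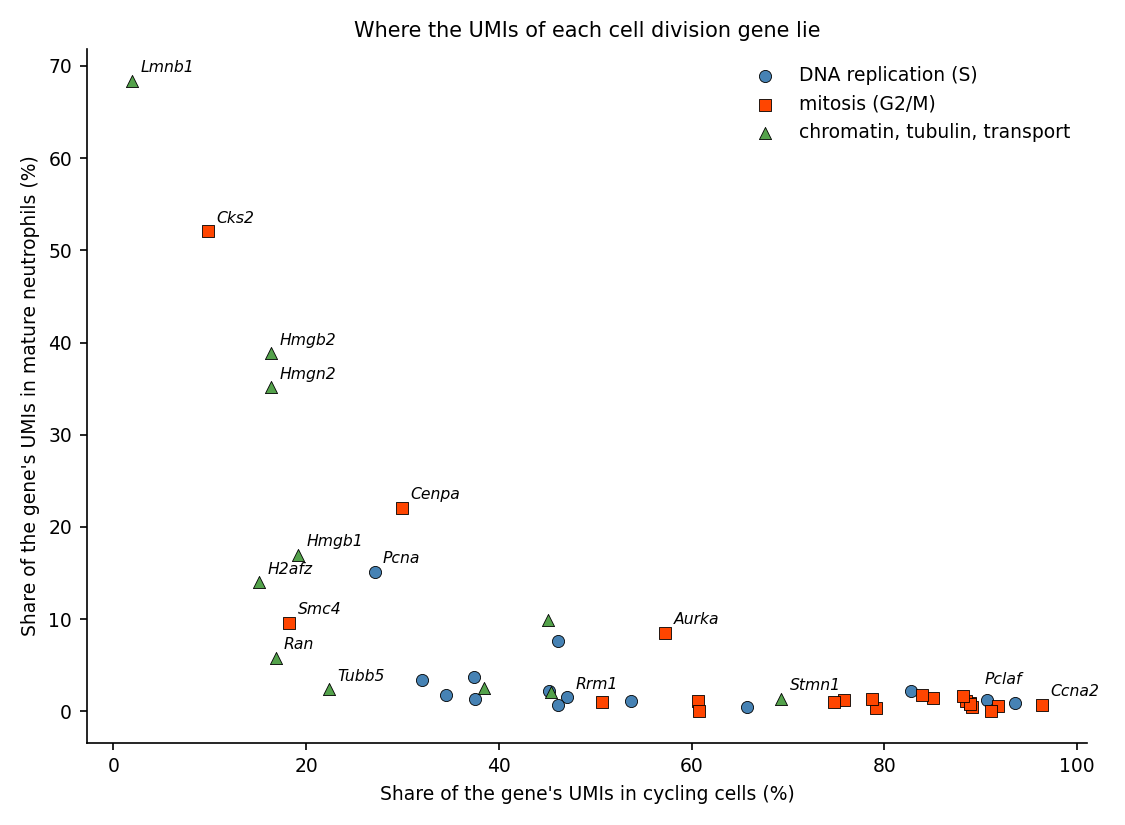
Share of the UMIs of each gene found in cycling cells (horizontal axis, percent) against the share found in mature neutrophils (vertical axis, percent), 1 point per gene with its role by colour and shape. Most mitosis genes sit at the lower right, over 70% in cycling cells, while Lmnb1 (68.4% in mature neutrophils) and Cks2 (52.1%) sit at the upper left.

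Among replication genes, Pcna (1088 UMIs), the sliding clamp of DNA polymerases, was the most abundant, and it was also the least tied to cycling cells, with 27.1% of its UMIs there. Its level was 160.0 and 164 CPM in precursors of the Mono mice and 199, 57.3 and 223 CPM in those of the Mono+MCTR3 mice. In the unnamed 54-cell cluster it read 124, 253 and 143 CPM in Mono and 373, 359 and 564 CPM in Mono+MCTR3. The groups overlapped in precursors and did not in the unnamed 54-cell cluster, where Mono+MCTR3 was higher in each mouse with at least 5 cells. In NK it averaged 72.3 CPM, in monocytes and macrophages 82.1, in T-cells 57.7 and in B-cells 47.1, well above the 7.63 CPM of immature neutrophils.

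Dut, which keeps uracil out of DNA (689 UMIs), averaged 425 CPM in the unnamed 54-cell cluster and 137 CPM in precursors, and 45.8 CPM in T-cells, 36.9 in B-cells and 29.5 in NK. Pclaf (672 UMIs) was more sharply set: 784 CPM in the unnamed 54-cell cluster, 332 in precursors, 54 in dendritic cells, 25.2 in monocytes and macrophages and 14.1 or less in NK, B-cells and T-cells. The dendritic mean was uneven, from 0, 0, 0 and 5.41 CPM in Mono and 88.3 and 230 CPM in Mono+MCTR3. In precursors Pclaf read 291 and 310.3 CPM in Mono and 399, 386 and 273 CPM in Mono+MCTR3, with overlap. Rrm2 (588 UMIs) averaged 608 ± 429 CPM in the unnamed 54-cell cluster and 501 ± 331 CPM in precursors, and no other class passed 14.6 CPM. Its precursor values were widely spread, at 407 and 128 CPM in Mono and 798, 281 and 893 CPM in Mono+MCTR3. The 6 Mcm genes, which together form the replicative helicase, averaged 50.4 (Mcm2) to 101 CPM (Mcm5) in precursors and 86.3 (Mcm4) to 256 CPM (Mcm6) in the unnamed 54-cell cluster. They remained readable in lymphocytes, where Mcm6 was 58.3 CPM in NK and 40.8 in T-cells, and lay between 0.253 and 1.83 CPM in the 2 later neutrophil classes. By mean, Tyms (149.8 against 78.6 CPM) and, by little, Tk1 (95.4 against 93.3 CPM) were the replication genes higher in precursors than in the unnamed 54-cell cluster.

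Most mitosis genes were close to silent outside the same classes. Top2a, which untangles DNA before chromosomes part, averaged 221 CPM in precursors and 432 CPM in the unnamed 54-cell cluster, then 23.0 ± 16.7 CPM in NK, 21.8 in dendritic cells and 7.07 or less in monocytes and macrophages, T-cells and B-cells. In precursors it was 116 and 91.3 CPM in Mono and 357, 193 and 347 CPM in Mono+MCTR3. Ube2c, the ubiquitin-conjugating enzyme of the anaphase-promoting complex, averaged 402 ± 217 CPM in precursors and 295 CPM in the unnamed 54-cell cluster. Its precursor values, 102 and 256 CPM in Mono and 588, 469 and 595 CPM in Mono+MCTR3, did not overlap either, but rest on 2 and 3 mice. Mki67, the Ki-67 antigen gene, reached 122 CPM in precursors and 198 in the unnamed 54-cell cluster.

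Ccnb2, a B-type cyclin, also reached the myeloid classes, at 240.2 CPM in precursors, 231 in the unnamed 54-cell cluster, 91.3 ± 126 in monocytes and macrophages and 81.3 in dendritic cells, against 5.93 CPM or less in all lymphocytes and later neutrophils. Cks1b, a cyclin-dependent kinase partner (448 UMIs), showed the same reach, with 156 CPM in precursors, 279 in the unnamed 54-cell cluster, 60.4 in dendritic cells, 60.0 in monocytes and macrophages and 70.4 in pDC. Cenpa, the histone of the centromere (1136 UMIs), was spread more evenly, from 239 CPM in precursors and 255 in the unnamed 54-cell cluster to 125 in dendritic cells, 66.8 in monocytes and macrophages, 61.0 in B-cells and 30.8 in mature neutrophils. Of its UMIs, 22.1% lay in mature neutrophils.

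Smc4, a condensin subunit (1927 UMIs), stood apart in T-cells. It averaged 289 ± 42.5 CPM there, beside 282 ± 55.6 CPM in precursors and 332 CPM in the unnamed 54-cell cluster, and was 85.7 CPM in NK, 76.4 in B-cells, 43.4 in monocytes and macrophages and 23.3 or less in later neutrophils. Per mouse, T-cells held 326, 346, 257 and 241 CPM in Mono and 303, 235, 279 and 327 CPM in Mono+MCTR3. No NK mouse passed 111 CPM and no B-cell mouse 94.6 CPM, so T-cells did not overlap with either. Its partner in condensin, Smc2, did not share this pattern by mean, with 14.6 CPM in T-cells, 20.8 in B-cells and 37.1 in NK.

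Cks2, a small partner of cyclin-dependent kinases and by far the most abundant mitosis gene (5891 UMIs), was not a marker of division here. It averaged 796 ± 191 CPM in precursors, 381 ± 66.7 in mature neutrophils, 309 in the unnamed 54-cell cluster and 195 ± 53.8 in immature neutrophils, and between 29.9 and 120.1 CPM in T-cells, B-cells, NK and monocytes and macrophages. Mast cells or basophils held the highest level, 1956 CPM in the Mono mouse and 4728 CPM in the Mono+MCTR3 mouse with at least 5 such cells. In that class Cks2 made up nearly all of the 3355 CPM of mitosis genes. Per mouse, mature neutrophils read 318, 484, 424 and 422 CPM in Mono and 346, 275, 381 and 401 CPM in Mono+MCTR3. Immature neutrophils read 184, 213, 142 and 249 CPM in Mono and 198, 179.7, 114 and 281 CPM in Mono+MCTR3, so the classes met only in 1 immature value (281 CPM) above 1 mature value (275 CPM).

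Chromatin, tubulin and transport genes held most of the UMIs of the list (98998 of 118693). Hmgb2, a DNA-bending protein (25869 UMIs), averaged 4248 ± 422 CPM in precursors and 2818 CPM in the unnamed 54-cell cluster. It stayed at 1253 ± 97.2 CPM in mature and 1059.6 ± 79.3 CPM in immature neutrophils, above monocytes and macrophages (882 ± 440), NK (625), T-cells (388) and B-cells (298). H2afz, the gene of histone H2A.Z (23224 UMIs), had another order. It was 3389.7 ± 253 CPM in precursors, 2656 in the unnamed 54-cell cluster, 2333 ± 217 in NK, 1954 in dendritic cells and 1858 ± 291 in monocytes and macrophages, and then 869.8 ± 99.7 in immature neutrophils, 625 ± 101 in T-cells, 406 ± 25.5 in mature neutrophils and 359 ± 63.3 in B-cells. NK thus held several times as much H2afz as T-cells or B-cells while holding few cycling cells. In NK it read 2315, 2327, 2689 and 2089 CPM in Mono and 2549, 2404, 2253 and 2039.9 CPM in Mono+MCTR3, and in T-cells 522, 492, 675 and 793 CPM in Mono and 724, 599.6, 578 and 616 CPM in Mono+MCTR3.

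Hmgb1, a relative of Hmgb2 (10388 UMIs), was lowest in neutrophils, with 105 CPM in immature and 217 in mature cells, against 488 in T-cells, 603 in B-cells, 717 in NK, 904 in precursors, 944 in pDC and 2876 in the unnamed 54-cell cluster. Lmnb1 (15821 UMIs) ran against the division pattern. It averaged 1341 ± 232 CPM in mature neutrophils and 554 ± 95.8 CPM in immature neutrophils, but 186 ± 45.1 CPM in precursors, 269 in the unnamed 54-cell cluster and 53.1 to 125 CPM in T-cells, NK, B-cells, monocytes and macrophages and dendritic cells. In mature neutrophils it read 1212, 1662, 1723 and 1344 CPM in Mono and 1147, 1139, 1159 and 1338 CPM in Mono+MCTR3. In immature neutrophils it read 568, 685, 559.5 and 445 CPM in Mono and 541, 456, 481 and 695 CPM in Mono+MCTR3. Every mouse had more Lmnb1 in mature than in immature neutrophils, and the classes did not overlap.

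**Figure D4:**
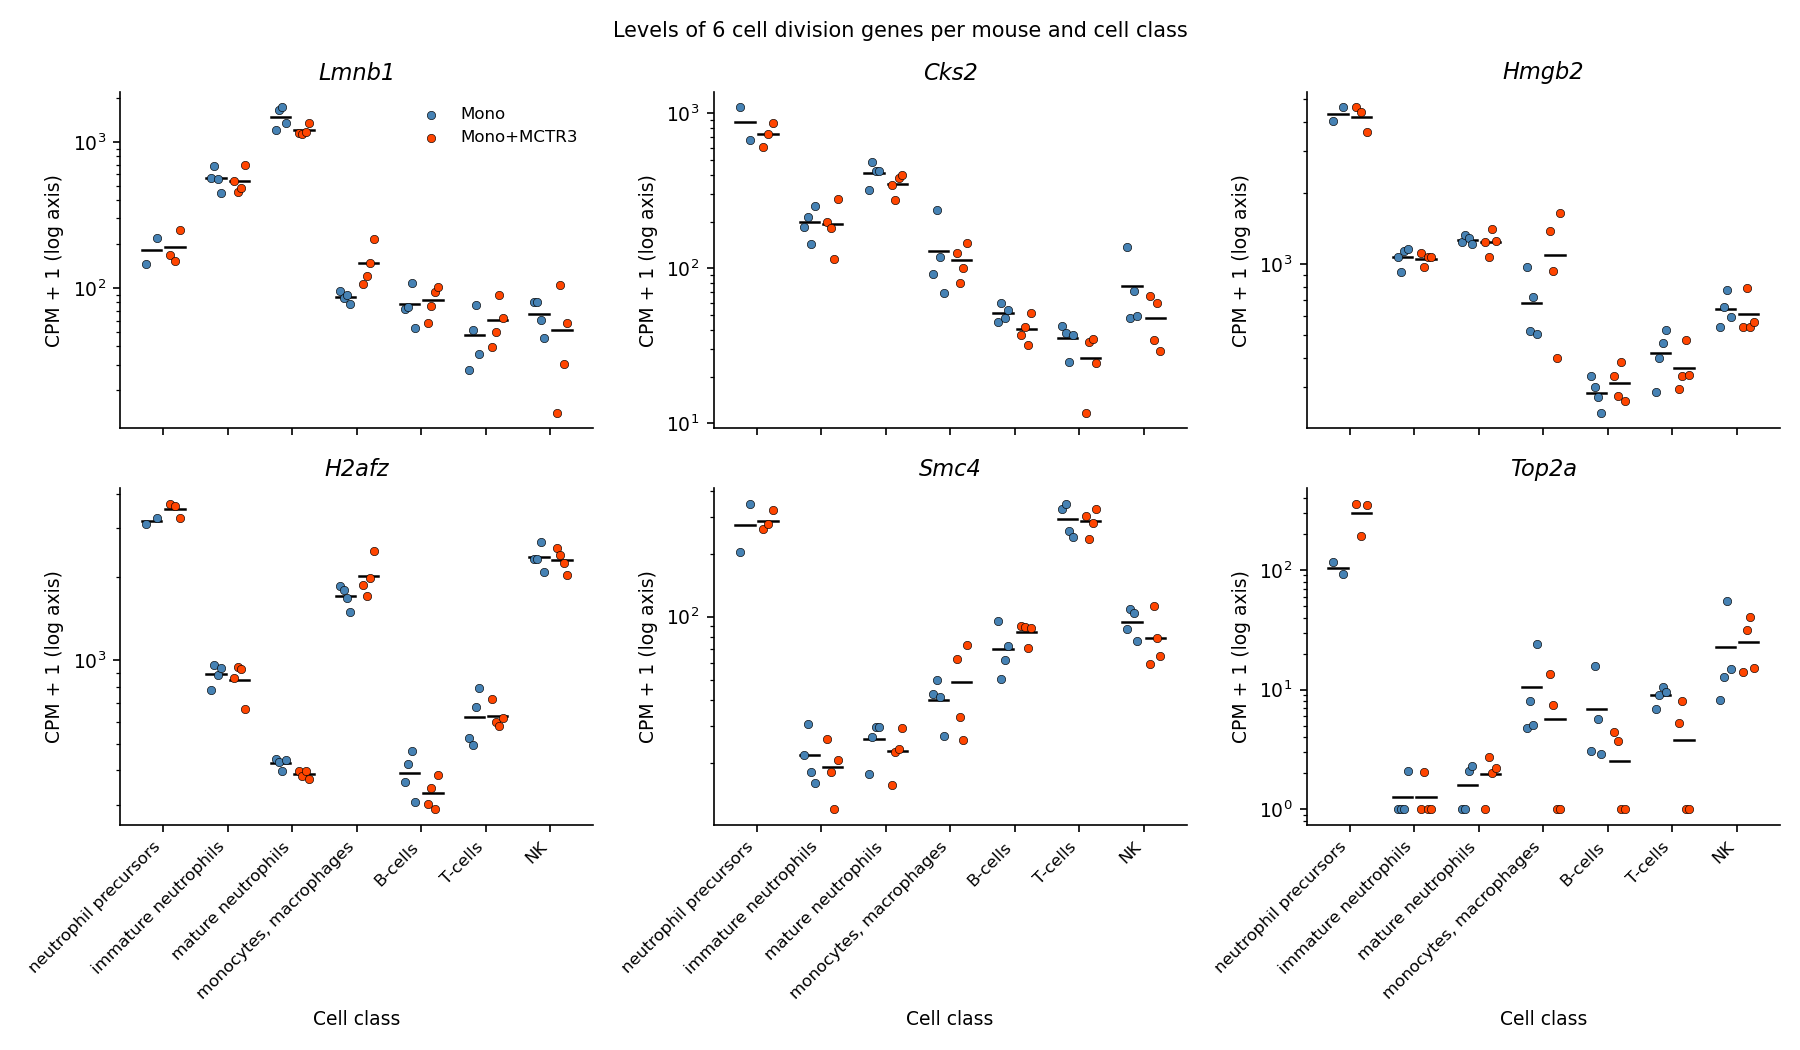
Levels of Lmnb1, Cks2, Hmgb2, H2afz, Smc4 and Top2a in CPM plus 1 on log axes (vertical) in 7 cell classes (horizontal), 1 point per mouse with at least 5 cells of the class, Mono in blue, Mono+MCTR3 in orange, bars at the group means. Top2a is highest in precursors (91.3 to 357 CPM), Smc4 is also high in T-cells, H2afz in NK and in monocytes and macrophages, and Lmnb1 is highest in mature neutrophils.

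Differences between classes were tested over mice with edgeR's quasi-likelihood test, with the mouse as a block and Benjamini-Hochberg adjustment over all genes tested. Each mouse used gave at least 5 cells of both classes, which left 2 Mono and 3 Mono+MCTR3 mice for the contrast with precursors. Neutrophil precursors and immature neutrophils differed in 55.8% of the genes tested, 27% higher and 28.8% lower in precursors. In these terms 39 of the 46 genes were higher in precursors, 1 was lower and 6 (Mcm2, Mcm3, Mcm6, Plk1, Aurka and Ezh2) were not tested because their counts were too low. Most passed the count filter only through the precursors, so their number is no support for a difference. Rrm2, Top2a and Ube2c, for example, averaged 0.662, 0.268 and 0.804 CPM in immature neutrophils, and no fold or p-value is given for them. H2afz (1.67, SE 0.13) and Hmgb2 (1.71, SE 0.14), genes with a level of their own in immature neutrophils, were higher in precursors. Lmnb1 was the exception, lower in precursors by a log2 difference of -1.82 (SE 0.19, adjusted p = 5.43e-08, edgeR).

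Mature and immature neutrophils, a contrast added after the data were seen, differed in 62.4% of the genes tested (32.2% higher and 30.2% lower in mature), and in 9 of the 10 cell division genes tested. With 1 mouse left out in turn, 6 to 8 passed. Higher in mature neutrophils were Lmnb1 (log2 difference 0.90, SE 0.07, edgeR adjusted p = 5.57e-10), Pcna (0.89, SE 0.23), Hmgb1 (0.67, SE 0.08), Cks2 (0.60, SE 0.10, adjusted p = 3.6e-05 with edgeR) and Cenpa (0.59, SE 0.24). Lower were H2afz (-1.48, SE 0.07, edgeR adjusted p = 4.16e-14), Hmgn2, a nucleosome-binding protein (-0.72, SE 0.07), Ran, the transport GTPase (-0.44, SE 0.14), and Hmgb2 (-0.14, SE 0.06). Smc4 did not pass (-0.12, SE 0.20). These differences lay between classes whose cycling shares were 0.0682% and 0.0617%. The sign of Hmgb2 depended on the scaling, since it was 0.24 when library totals replaced TMM, a change that moved the median of all genes by 0.37.

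B-cells and T-cells differed in 50.9% of genes, 26.3% higher and 24.5% lower in B-cells. Of 17 cell division genes tested, 2 were higher in B-cells (Cenpa, 0.54, SE 0.20, and Lmnb1, 0.41, SE 0.15) and 9 were lower. The lower genes were Smc4 (-2.03, SE 0.12, edgeR adjusted p = 1.44e-14), Tubb5 (-1.15) and Tuba1b (-1.14), which are tubulins, H2afz (-1.05), Mcm6 (-0.98), Stmn1 (-0.76), Pcna (-0.66), Hmgb2 (-0.57) and Ran (-0.26). With library totals, which moved the median of all genes by 0.23, the counts were 6 higher and 6 lower, so the lean towards T-cells depended on the scaling. Without mouse 1 of Mono, 6 genes passed.

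NK differed from T-cells in 42.1% of genes, 21.8% higher and 20.2% lower in NK. Of 13 cell division genes tested, H2afz (1.57, SE 0.08, edgeR adjusted p = 7.59e-14), Stmn1 (1.25, SE 0.29) and Hmgb2 (0.38, SE 0.10) were higher in NK, and Smc4 (-2.02, SE 0.13, edgeR adjusted p = 5.66e-12) and Tubb5 (-1.38, SE 0.12) were lower. With library totals 6 were higher and 2 lower, with a shift of 0.37 in the median of all genes. Stmn1 was uneven among NK mice, at 86.5, 91.6, 273 and 51.6 CPM in Mono and 91.0, 239, 88.1 and 85.3 CPM in Mono+MCTR3.

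Monocytes and macrophages differed from T-cells in 67.8% of genes, 33.2% higher and 34.5% lower, and in 8 of 13 cell division genes. Higher were Cks2 (1.57, SE 0.25), H2afz (1.24, SE 0.10), Stmn1 (0.94, SE 0.22), Lmnb1 (0.85, SE 0.19) and Hmgb2 (0.80, SE 0.21). Lower were Smc4 (-3.08, SE 0.15, edgeR adjusted p = 6.35e-14), Tubb5 (-0.93, SE 0.13) and Ran (-0.46, SE 0.16). With library totals 8 were higher and 2 lower, with a shift of 0.31. Smc4 was thus lower than in T-cells in all 3 contrasts with T-cells, which share the same T-cell sums. The shares called among cell division genes, from 5 of 13 to 11 of 17, lay near those of all genes.

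The groups were then compared to see whether recipients of MCTR3-treated monocytes held more or fewer dividing cells. Over all cells, 1.34 ± 0.453% were cycling in Mono (SD, n = 4) and 1.47 ± 0.536% in Mono+MCTR3 (n = 4). By mouse these were 16 of 1111, 11 of 1431, 13 of 998 and 24 of 1286 cells in Mono, and 20 of 1284, 41 of 1913, 12 of 903 and 6 of 704 in Mono+MCTR3. The groups overlapped, and the difference was smaller than the spread. Shares were scored over the genes of the list and carry no p-value.

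In T-cells, 2.95 ± 0.484% were cycling in Mono (2 of 85, 3 of 109, 2 of 59 and 5 of 152) and 2.27 ± 0.921% in Mono+MCTR3 (2 of 131, 2 of 124, 1 of 41 and 2 of 57). NK gave 1.67 ± 1.25% in Mono and 0.959 ± 1.12% in Mono+MCTR3, and B-cells 1.13 ± 0.891% and 1.05 ± 0.80%. All 3 lymphocyte classes overlapped between the groups, with 0 to 7 cycling cells per mouse. Monocytes and macrophages gave 5.07 ± 1.85% in Mono (3 of 39, 1 of 28, 2 of 50 and 3 of 60) and 11.0 ± 8.87% in Mono+MCTR3 (4 of 25, 6 of 75, 0 of 7 and 1 of 5). The Mono+MCTR3 mean rests in part on mice 3 and 4, which gave 7 and 5 scored cells, and these lie at both ends of the range. With 5 genes needed, the difference turned to -1.84 percentage points. Dendritic cells had 6.09 ± 9.50% in 4 Mono mice and 13.75 ± 1.77% in 2 Mono+MCTR3 mice, from 6 cycling cells in all, a difference that turned to -0.581 points at a clustering resolution of 1.0.

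In neutrophil precursors the share was 90 ± 14.1% in 2 Mono mice and 78.0 ± 19.6% in 3 Mono+MCTR3 mice, from 13 and 28 cells in all. The sign of this difference was not stable, since Mono+MCTR3 was higher by 24.5 points with 5 genes needed, by 29.9 points when cells were thinned to 500 UMIs, by 16.6 points with cell division genes kept in the clustering and by 2.5 points when cells with over 3000 genes were kept. In mouse 2 of Mono+MCTR3 the precursors held 21287 CPM of red cell genes, and without that mouse the mean share of the group was 85.7%. The part of these genes was not tested. In the unnamed 54-cell cluster it was 36.1 ± 12.7% in 3 Mono mice (2 of 6, 2 of 8 and 5 of 10 cells) and 68.5 ± 26.8% in 3 Mono+MCTR3 mice (3 of 8, 11 of 13 and 5 of 6 cells). There the summed replication genes were 2387 CPM on average in Mono (2013 to 2659) and 5024 CPM in Mono+MCTR3 (3704 to 6401), and the mitosis genes 2464 CPM (1588 to 3269) and 5406 CPM (3953 to 6977). Neither sum overlapped between the groups among these mice, which had at least 5 cells. Of the mice left out, mouse 4 of Mono+MCTR3 (2 cells) read 5675 CPM of replication and 1051 CPM of mitosis genes. Mouse 3 of Mono (1 cell) read 345 and 518 CPM, so with these mice the mitosis sums overlapped. Mouse 3 of Mono+MCTR3, which had the highest replication sum, held 207934 CPM of red cell genes against 600 to 1209 CPM in the 3 Mono mice with at least 5 cells, and a median of 11301.5 UMIs per cell against 6126.5 to 6637. Without it the Mono+MCTR3 mice with at least 5 cells read 3704 and 4966 CPM of replication and 3953 and 6977 CPM of mitosis genes, still above those 3 Mono mice. The makeup of the cluster also moved with the group: the summed pre-B genes averaged 1771 CPM in Mono and 5032 CPM in Mono+MCTR3, and stem or progenitor genes 1763 and 916 CPM. Of the 29 cycling cells, 20 carried at least 3 of the 10 pre-B genes. The part of this makeup, of the red cell genes and of depth in the difference was not tested, and fewer cells of a type and less RNA per cell cannot be told apart in these sums.

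Single genes were compared between the groups in 7 classes, with the sums per mouse as replicates and the quasi-likelihood test of edgeR. None of the cell division genes passed an adjusted p of 0.05 in any of the 7 classes. The likelihood ratio test and DESeq2 also called 0 of them. Over all genes, 2 of 2580 passed in monocytes and macrophages (0.0775%; 0.0388% higher and 0.0388% lower), and 0% passed in the other 6 classes. Genes at an unadjusted p under 0.05 numbered 26 of 714 in neutrophil precursors, 117 of 3011 in immature neutrophils, 258 of 4056 in mature neutrophils, 189 of 3955 in B-cells, 178 of 3435 in T-cells, 103 of 2254 in NK and 183 of 2580 in monocytes and macrophages. Counts were also simulated at the same depth, with 1 fixed spread between mice for every gene. The spread of these data was not used, so the shares found may be off where mice were uneven. A log2 change of 2 was found for 68.2% of changed genes in precursors, 86.0% in monocytes and macrophages and 93.7 to 98.3% in mature neutrophils, B-cells, T-cells and NK, and a log2 change of 1 for 4.17% to 34.2%. A log2 change of 1 could therefore be missed in each of these classes.

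**Figure D5:**
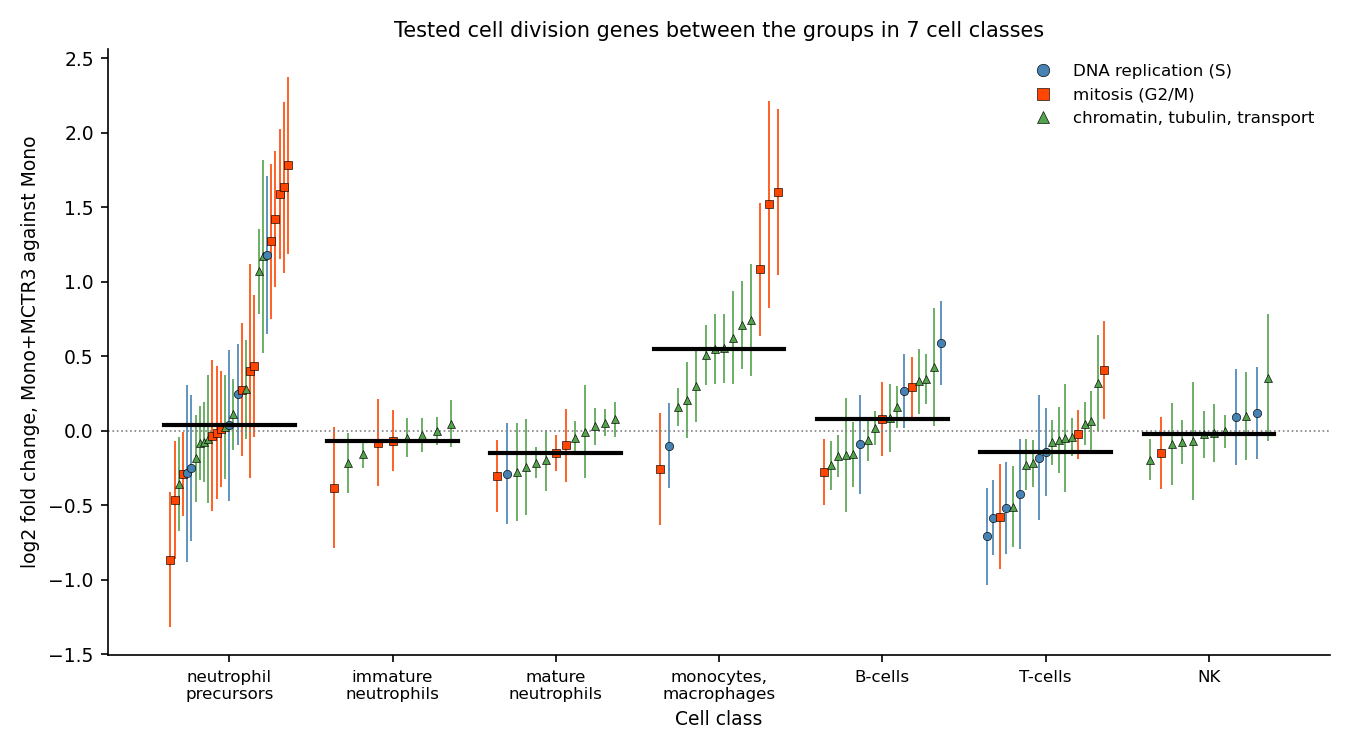
Log2 fold change of Mono+MCTR3 against Mono (vertical axis) for each tested cell division gene in 7 cell classes (horizontal axis), with lines of 1 SE, colour and shape by role, and a black bar at the median of the genes tested in the class. Medians lie between -0.15 and 0.08 in 6 classes and at 0.55 in monocytes and macrophages, and no gene passes an adjusted p of 0.05.

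Monocytes and macrophages had the largest shift by median, 0.55 over 14 cell division genes against -0.02 over all genes, with 12 above 0 and 7 at an unadjusted p under 0.05. Cenpa had a log2 fold change of 1.60 (SE 0.56, edgeR adjusted p = 0.548), Ccnb2 of 1.52 (SE 0.69, edgeR adjusted p = 0.688) and Cks1b of 1.08 (SE 0.45, edgeR adjusted p = 0.673). The lowest were Cks2 (-0.26), Pcna (-0.10) and H2afz (0.16), of which Cks2 and Pcna turned sign, up to 0.12 and 0.03, as mice were left out in turn. Cenpa read 64.2, 14.0, 32.2 and 5.73 CPM in Mono and 142, 57.9, 49.5 and 168 CPM in Mono+MCTR3, and Ccnb2 read 75.5, 0, 40.2 and 17.2 CPM and 136, 51.5, 24.8 and 385 CPM. The groups overlapped for both genes. Lmnb1 did not overlap in this class, at 94.4, 84.0, 88.5 and 77.4 CPM in Mono and 105, 120.1, 149 and 216 CPM in Mono+MCTR3, with a log2 fold change of 0.55 (SE 0.23, edgeR adjusted p = 0.675). Mice 3 and 4 of Mono+MCTR3 gave 8 and 5 cells of the class. The class was also made up unequally, with 98 and 68 cells of the monocyte cluster that held nearly all cycling cells, 38 and 39 macrophages, and 42 and 6 cells of a cluster with nonclassical monocyte genes (Mono and Mono+MCTR3). Within the monocyte cluster, pooled over mice, mitosis genes summed to 405 CPM in Mono and 775 CPM in Mono+MCTR3 and replication genes to 419 and 490 CPM, while the macrophages had 139 and 122 CPM of mitosis genes. How far this makeup accounts for the class values was not tested.

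In neutrophil precursors 29 genes were tested, with a median of 0.04 and 7 at an unadjusted p under 0.05. The highest were the mitosis genes Nusap1 (1.78, SE 0.59), Cdk1, the kinase that starts mitosis (1.63, SE 0.58) and Ube2c (1.59, SE 0.44, edgeR adjusted p = 0.692), and the lowest were Ccnb2 (-0.86, SE 0.46), Smc2 (-0.46) and Ran (-0.36). Nusap1 read 29.1 and 73.0 CPM in Mono and 168, 156 and 223 CPM in Mono+MCTR3. Cdk1 read 43.6 and 146 CPM in Mono and 262, 229 and 446 CPM in Mono+MCTR3. Neither overlapped, but with 2 mice against 3 and 13 cells in Mono a single mouse could decide the value. Leaving out 1 mouse moved Nusap1 between 1.05 and 2.69, Cdk1 between 0.78 and 2.86 and Ube2c between 0.89 and 2.57. Without mouse 3 of Mono, which left 1 Mono mouse whose spread is assumed to be that of the other group, Ube2c (2.57) and H2afx (3.46), the histone that marks DNA breaks, passed with an edgeR adjusted p = 0.0203.

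T-cells leaned the other way by median, -0.14 over 19 genes with 4 above 0, but again no gene passed. Dut (-0.71, SE 0.32, edgeR adjusted p = 0.906), Pcna (-0.58, SE 0.25, edgeR adjusted p = 0.906) and Cks2 (-0.58, SE 0.35) were lowest, and Cenpa (0.41), Lmnb1 (0.32) and Tuba1b (0.07) highest. Without mouse 4 of Mono, Pcna was -0.27 and Dut -0.46, and without mouse 1 of Mono+MCTR3, Cks2 was -0.19. Tuba1b ran from -0.08 to 0.23 as mice were left out in turn. Pcna in T-cells was 56.4, 61.2, 52.3 and 105 CPM in Mono and 44.9, 53.4, 40.8 and 47.4 CPM in Mono+MCTR3, with overlap. In B-cells the median was 0.08 over 17 genes, from Dut (0.59, SE 0.28, edgeR adjusted p = 0.969), Stmn1 (0.43) and Tubb5 (0.35) down to Cks2 (-0.28), Hmgn2 (-0.23) and H2afz (-0.17). Dut thus had opposite signs in B-cells and T-cells, a difference that was not tested. In NK the median was -0.02 over 12 genes, from Stmn1 (0.36), Mcm6 (0.12) and Hmgn2 (0.10) to Hmgb1 (-0.19), Smc4 (-0.15) and Tuba1b (-0.09). Leaving out 1 mouse turned the sign of 4 of these 6, with Stmn1 between -0.37 (without mouse 2 of Mono+MCTR3) and 0.94 (without mouse 3 of Mono), Mcm6 between -0.04 and 0.24, Hmgn2 between -0.19 and 0.40 and Tuba1b between -0.29 and 0.11.

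Later neutrophils, which gave the most cells, had the narrowest range from the highest to the lowest log2 fold change. Single genes still moved as mice were left out in turn. Cenpa ran from -0.92 to -0.13 in immature neutrophils and Pcna from -0.52 to -0.0014 in mature neutrophils. In immature neutrophils the median over 9 genes was -0.07, between Hmgb1 (0.05), Hmgb2 (-0.00) and H2afz (-0.03) at the top and Cenpa (-0.38, SE 0.41), Ran (-0.21) and Hmgn2 (-0.15) at the bottom. In mature neutrophils the median over 13 genes was -0.15, between Hmgn2 (0.08), Hmgb2 (0.05) and Hmgb1 (0.03) and Cenpa (-0.30), Pcna (-0.29) and Tuba1b (-0.27). Lmnb1, whose values per mouse are given above, had a log2 fold change of -0.21 (SE 0.11, edgeR adjusted p = 0.78). In that class library totals moved the median of all genes by -0.10, and in the other 6 group comparisons by less. Too few mice held 5 pDC for a test.

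Beside the 46 genes, 88 other cell cycle genes (cyclins, kinase inhibitors, licensing and histone supply genes) were counted in the same tests. Between the groups, none passed with edgeR's quasi-likelihood test in any of the 7 classes. At an unadjusted p under 0.05 by that test they numbered 2 in neutrophil precursors, 1 in immature neutrophils, 1 in mature neutrophils, 2 in B-cells and 0 in the other 3 classes. The likelihood ratio test called 1 in neutrophil precursors and DESeq2 1 in mature neutrophils. In precursors against immature neutrophils 21 of 26 tested were higher and 1 was lower, Pttg1, the securin gene (-3.78). Of all genes tested there, 27% were higher and 28.8% lower. Genes can pass the count filter only through the precursors, so the 21 are no support for a difference. In mature against immature neutrophils 5 of 10 were higher, among them Ccnd2, a D-type cyclin (2.49), Cdkn1a, the p21 inhibitor (1.75), and Pttg1 (1.50), and 3 were lower, among them Ccnd3 (-1.58). B-cells were lower than T-cells in 6 of 13, including Ccnd2 (-1.25), Ccnd3 (-0.75) and the inhibitor Cdkn1b (-0.64), and higher in 2, Cdt1 (0.64) and Cdc25b (0.64). NK were higher than T-cells in 4 of 11, led by Slbp, which binds histone messages (0.80), and Ccnd3 (0.68), and lower in Nasp (-0.54). Monocytes and macrophages were higher than T-cells in Cdkn1a (3.45) and Tuba1c (1.76) and lower in Ccnd2 (-5.61), Cdkn1b (-1.32) and Pttg1 (-0.54), of 11 tested. Over all genes tested, 32.2% were higher and 30.2% lower in mature against immature neutrophils, and 26.3% and 24.5% in B-cells against T-cells. In NK against T-cells these shares were 21.8% and 20.2%, and in monocytes and macrophages against T-cells 33.2% and 34.5%.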

How the data were processed

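Cells from the paw joints of 8 mice (4 per group) were measured by droplet single cell RNA sequencing. The authors deposited raw UMI counts of genes by barcodes in 1 table for each group, obtained with Cell Ranger (STAR, GRCm38) and aggregated within each group, a step that can equalise read depth within but not between groups. Cell Ranger, edgeR and GRCm38 come from the submitters' processing notes, without versions. Mice were told apart by barcode suffix, and p-values measure the spread between these mice. The 46 members, the 88 other cell cycle genes, the marker lists and the tests were chosen with earlier results of these data known.

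Barcodes removed were 40 for few genes or UMIs, 40 for over 3000 genes and 209 for mitochondrial UMIs. Seurat 5.3.0 in R 4.3.3 clustered cells (scale factor 1000, log) on 20 components of 2000 variable genes at a resolution of 0.5, after 101 cell cycle or histone genes had been dropped from those 2000. Other genes that follow division were not dropped. Monocytes, macrophages, dendritic and unnamed cells were clustered again and, after the data were seen, so were immature neutrophils. A cluster took the name of the list with the highest mean log2 fold over other cells (10 CPM added) if 3 markers were each seen in 10% of its cells and 1 was among its 10 leading genes. Scrublet called 55 doublets (0.536%), which were kept.

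Cycling shares left out 415 cells of Mono (7.92%) and 211 of Mono+MCTR3 (4.21%) with under 1000 UMIs. Means and SD use mice with at least 5 cells. Sums of UMIs per mouse and class were tested in edgeR 4.0.16 (TMM, filterByExpr, glmQLFit, glmQLFTest, two-sided, adjusted p under 0.05), with a mouse block between classes, and the tests were tried on simulated data. Alternatives were the likelihood ratio test, DESeq2 1.42.0, library totals, no count filter, each mouse left out, division genes kept in clustering, no mouse block, resolution 1.0, doublets removed, no upper gene limit, a 10% mitochondrial limit, no second clustering, the unnamed 54-cell cluster clustered again with the monocytes and, for shares, no thinning, 500 UMIs, and 2 or 5 genes. Genes named are the 3 highest and 3 lowest per class between groups, the 4 with most UMIs per role and those past the threshold (at most 12, or 10 of the 88, per comparison). Others described by class, among them Top2a, Ube2c, Mki67 and Ccnb2, were chosen after their values were seen.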

Additional observations from a re-analysis of the deposited data

Results flagged for a closer look

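Of 54 sets of 4 mice checked, 5 held a mouse whose gap to the next was over 0.829 of the whole range, the limit for 4 values. For values that follow a normal curve, chance alone gives about 1 in 20 sets, a rate that does not hold for shares resting on few cells. In NK, mouse 2 of Mono+MCTR3 stood above the other 3 mice of its group for replication and mitosis genes alike, with 643 CPM of summed replication genes (the others 255 to 306) and 404 CPM of summed mitosis genes (the others 227 to 247). In T-cells, mouse 4 of Mono held 3127 CPM of chromatin, tubulin and transport genes (the others 2519 to 2610). In immature neutrophils, mouse 4 of Mono had a cycling share of 0.427% from 1 cell of 234, and in mature neutrophils mouse 4 of Mono+MCTR3 had 0.231% from 1 cell of 432, with the others of each group at 0. With 1 cycling cell in a group the gap is the whole range, so both of these flags followed from the counts.

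Among the 40 barcodes left out for holding over 3000 genes, 28 were cycling by the same count, and 21 held at least 5 of the replication and mitosis genes. Clustered without that limit, 13 of the 40 fell among monocytes and macrophages (8 cycling), 5 among neutrophil precursors (3 cycling), 21 in unnamed clusters (17 cycling) and 1 among dendritic cells. The upper limit on genes per cell thus removed barcodes called cycling, beside 143 cells that were kept. The study set this limit against cell doublets. Scrublet was not run on these 40 barcodes, so how many were single cells was not tested.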

How the results depend on the processing

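No paired analysis was possible because the groups share no replicate numbers in the labels. For the number of cell division genes passing, 194 alternatives gave the same call, 5 more and 1 fewer. Counts within a ratio of 3 to 2 of the main one were taken as the same. The 194 thus include changed counts, such as 6 to 8 in mature against immature neutrophils with 1 mouse left out. Leaving out 1 mouse gave 0 to 2 in neutrophil precursors between groups (2 without mouse 3 of Mono) and 6 to 12 in B-cells against T-cells (6 without mouse 1 of Mono). Without the count filter 2 passed between groups in monocytes and macrophages (Ccnb2, 1.49, and Cenpa, 1.55, among 76 genes), 9 in NK against T-cells and 21 in monocytes and macrophages against T-cells, and with library totals 8 in NK against T-cells. With library totals Hmgb2 turned to 0.24 in mature against immature neutrophils. The cause was not tested.

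Of 165 alternatives for the group difference in cycling share (Mono+MCTR3 minus Mono, percentage points), 17 moved it. A move was counted only from the size of the SD between mice within groups, so smaller changes are not among the 17, even where the sign turned. The difference turned sign under at least 1 alternative over all cells and in every class compared except the unnamed 54-cell cluster and immature neutrophils. With 5 genes needed it was 24.5 in precursors and -1.84 in monocytes and macrophages. With 2 needed it was 15.2 in dendritic cells, 1.47 in B-cells, -0.637 in immature and -0.315 in mature neutrophils. Thinned to 500 UMIs it was 29.9 in precursors, 16.4 in dendritic cells, 0.266 in T-cells and 1.11 in B-cells. Without thinning it was -8.33 in T-cells, 2.56 in B-cells, 0.0757 in mature neutrophils and -0.816 over all cells. With cell division genes kept in the clustering it was 16.6 in precursors and -0.293 in immature neutrophils, and at resolution 1.0 it was -0.581 in dendritic cells. Few cells limit these shares.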
